A study of Rattus norvegicus with 16 samples.

Results

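Glutathione peroxidase 2, encoded by *Gpx2*, was described beside the other peroxidases and the genes under NRF2 control in rat hepatoma H35 cells in which *Pdrg1* was silenced. The 10 genes *Gpx1*, *Gpx2*, *Gpx3*, *Gpx4*, *Gclc*, *Gclm*, *Gsr*, *Nqo1*, *Hmox1* and *Txnrd1* were found by their names in the array files, out of 26269 gene names, and were read by 13 probes. *Gpx2* was chosen by its measured level, which was lower than in the control clone, so its values, between silenced groups as well, are a description and carry no test. The other 9 genes were added for their family or pathway. Whether their own values played a part in that choice is not recorded, so nothing is read from how many of them differed from the control.

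H35 cells, a rat hepatoma line grown in serum-containing medium, were measured in 4 groups on one-color Agilent arrays, on which each array carries a single Cy3-labelled sample. The control, CN-10, is a stable clone that carries a negative control shRNA plasmid. Clone 4-18 carries the shRNA4 plasmid and clone 3-44 the shRNA3 plasmid, both directed at *Pdrg1*. The last group, shRNA3T, is a pool of H35 cells that received the shRNA3 plasmid by transient transfection and were enriched with G418 at 1.8 mg/ml, whereas the 3 clones were taken on to 4 mg/ml. Each group has 4 biological replicates (n = 4 throughout, unless stated), 16 arrays in all. Each stable line is 1 clone, so the effect of the shRNA cannot be told apart from other differences between clones. The same holds for the slide, since every group was hybridized to a separate slide and that of 4-18 was read on a different day.

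Levels are given as log2 intensity after background correction and quantile normalization. The array reads total RNA of a culture, so fewer cells of a type and less RNA per cell cannot be told apart. A level of one probe is not comparable with that of another. *Pdrg1* itself ranged from 13.41 to 13.88 in CN-10, from 11.57 to 13.34 in 4-18, from 11.89 to 12.95 in 3-44 and from 12.39 to 12.97 in shRNA3T. Every silenced array was below every CN-10 array, but the difference did not pass the test in any group (limma adjusted p of 0.129 in 4-18, 0.105 in 3-44 and 0.143 in shRNA3T), and replicate 1 was the lowest in all 3 silenced groups. Of 10 hepatocyte markers, 8 were well above background on all 16 arrays and the other 2, *Apoa1* and *Hnf4a*, on 15. Markers of other cell types were present too. Of 5 blood and endothelial markers *Lyz2* and *Cdh5* were well above background on all 16 arrays and *Cd68* on 15, while *Ptprc* and *Pecam1* were so on none. Of 5 stromal markers *Col1a1* was on all 16, *Col1a2*, *Des* and *Acta2* on 15 each and *Pdgfrb* on 1. The scanner software marked 53.1% to 74.3% of an array's spots as well above background and none as saturated. The arrays of 4-18 were the dimmest, with a 75th percentile signal of 1614 to 1946 against 2328 to 3692 on the others, and the part of this in the results was not tested. Replicate 4 of 4-18 stood apart in its background. The local background of its spots had an SD of 47.7, against 13.3 on replicate 2 of 4-18 and 2.57 to 3.63 on the other arrays, and its 5th percentile after background correction was 8.64 on the log2 scale, against 5.93 to 6.09 elsewhere. Leaving it out ended 1 call of a member, that of *Gclc* between 4-18 and shRNA3T, and added 2, those of *Gpx1* in 4-18 against CN-10 and against 3-44. The values without it are given for each member against CN-10.

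Glutathione peroxidases reduce hydrogen peroxide and lipid peroxides with electrons from glutathione. GPX1, GPX2, GPX3 and GPX4 are selenoproteins, in which a UGA codon is read as selenocysteine. Glutathione is made by glutamate-cysteine ligase, a pair of a catalytic subunit (GCLC) and a modifier subunit (GCLM), followed by glutathione synthetase, and is returned to its reduced form by glutathione reductase (GSR). NRF2 is the transcription factor that drives many of these genes. KEAP1 and the ubiquitin ligase scaffold CUL3 keep it low, and when it escapes them it binds with a small MAF protein to the antioxidant response element. *Nqo1*, a quinone reductase, is widely used as a readout of its activity, while *Hmox1*, the heme-degrading oxygenase, also answers to the heme-binding repressor BACH1.

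The core letters of the antioxidant response element, TGACNNNGC, were searched on both strands of the promoter windows of RefSeq (GRCr8 build), each reaching from 250 bases before to 50 bases after the start of a gene. The windows are shown for *Gpx2* and *Nqo1*, the genes that were lower than CN-10 in all 3 silenced groups, with any match to the motif in capitals, each read 5′ to 3′ on the strand of its gene. *Gpx2* is on the minus strand at chr6:101229984-101230283 and *Nqo1* on the minus strand at chr19:52220218-52220517.
*Gpx2* promoter: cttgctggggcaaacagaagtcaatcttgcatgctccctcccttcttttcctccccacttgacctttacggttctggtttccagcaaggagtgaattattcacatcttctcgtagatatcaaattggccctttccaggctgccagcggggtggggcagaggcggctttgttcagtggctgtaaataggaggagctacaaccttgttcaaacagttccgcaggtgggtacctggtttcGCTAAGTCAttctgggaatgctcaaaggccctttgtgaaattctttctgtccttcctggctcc
*Nqo1* promoter: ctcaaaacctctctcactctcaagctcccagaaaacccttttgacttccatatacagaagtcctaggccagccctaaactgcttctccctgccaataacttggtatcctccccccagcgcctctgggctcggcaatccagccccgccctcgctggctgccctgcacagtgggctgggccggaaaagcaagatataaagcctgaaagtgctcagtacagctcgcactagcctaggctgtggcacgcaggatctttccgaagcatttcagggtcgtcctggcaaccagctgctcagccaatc
The *Gpx2* window holds 1 match, which begins 13 bases before the start site and reads as the motif on the opposite strand. The *Nqo1* window holds none. Of the 10 members 8 had at least 1 window, and *Gclm* (GCTTAGTCA, beginning 172 bases before the start) and 1 of the windows of *Txnrd1* (GCTTTGTCA, 78 bases before) were the others with a match, again on the opposite strand. Of 33469 windows of this length, 12.1% hold the motif. A match is a description of letters and not a binding site, and a window without one says nothing of sequence farther away.

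*Gpx2*, the peroxidase best known from the gut lining, was read by a pair of probes. The brighter one lies on the minus strand of chr6:99372423-99372482 and the other at chr6:99372734-99372793, 251 bases apart (rn4 build, as the array files give it). The sequence of the second is shown because it places that reading at the end of the coding part, with the stop codon that closes an open frame in capitals.
*Gpx2* probe: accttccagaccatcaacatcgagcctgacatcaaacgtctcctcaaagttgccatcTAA
The brighter probe stood at 13.70, 13.55, 13.59 and 13.39 in CN-10 (mean 13.56 ± 0.13 SD). It stood at 10.54, 10.995, 9.86 and 10.78 in 4-18 (10.54 ± 0.49), at 11.99, 11.68, 11.39 and 11.56 in 3-44 (11.65 ± 0.25) and at 10.39, 10.14, 10.78 and 10.90 in shRNA3T (10.55 ± 0.35). No silenced array came within reach of the CN-10 arrays, and the 3-44 arrays all lay between those of CN-10 and those of the other two silenced groups. Against CN-10 the level was 8.07-fold lower in 4-18, 3.74-fold lower in 3-44 and 8.01-fold lower in shRNA3T (log2 fold changes of -3.01, -1.90 and -3.002, each with a standard error of 0.22). The second probe gave -1.99, -1.31 and -2.46, in the same direction and smaller. Over the 16 arrays both probes moved together (Pearson's r = 0.965). Without replicate 4 of 4-18 the value of the brighter probe in that clone was -3.09, and without replicate 1 of every group the values were -2.96, -1.96 and -2.90.

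**Figure D1:**
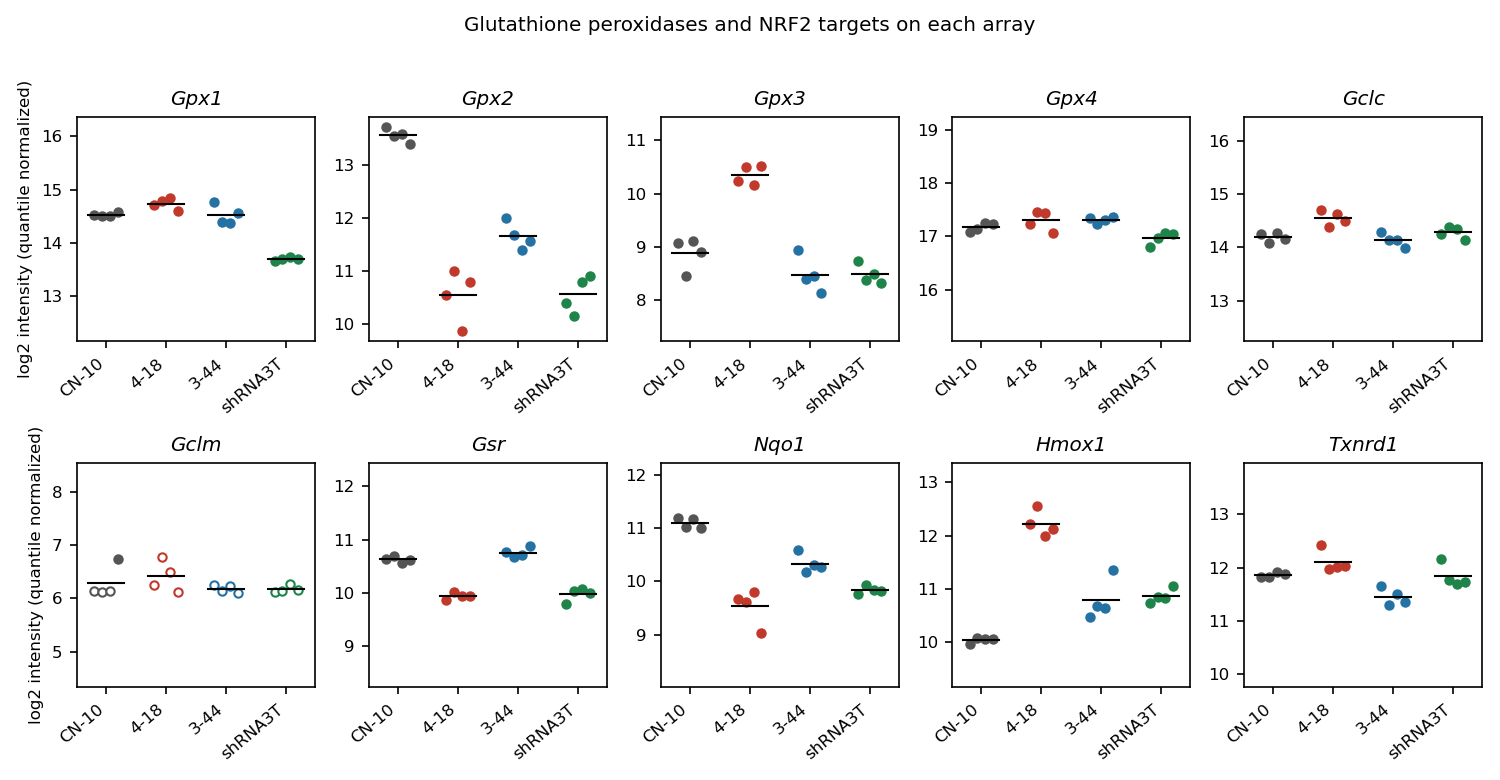
Log2 intensity (quantile normalized, vertical axis) of the brightest probe of each member on each of the 16 arrays, by group, with the group mean as a line. Open points were not well above background, each panel has its own axis, and all *Gpx2* points of the silenced groups lie between 9.86 and 11.99, below the CN-10 points at 13.39 to 13.70.

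*Gpx1*, the abundant cytosolic enzyme, stood at 14.53, 14.49, 14.50 and 14.57 in CN-10 and at 13.67, 13.71, 13.73 and 13.69 in shRNA3T, where it fell by 0.83 on the log2 scale (1.77-fold, standard error 0.08, limma adjusted p = 1.31e-05). In the deposited values without scaling it was -0.84 and did not pass (limma adjusted p = 0.0723). Its 4 arrays of 4-18 lay between 14.59 and 14.84, above those of CN-10, but the difference of 0.21 did not pass the test (limma adjusted p = 0.087). It passed without replicate 4 of 4-18 (0.26, limma adjusted p = 0.0471) and without replicate 1 of 3-44 (limma adjusted p = 0.0357), and it was -0.50 in the deposited values without scaling. The level in 3-44 was 14.52 ± 0.18, with a 95% interval of the difference from CN-10 from -0.18 to 0.18. The array files place the *Gpx1* probe on an unplaced stretch of chromosome 16 (rn4), whereas the promoter window of the gene lies on chromosome 8 (GRCr8).

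*Gpx3*, the secreted peroxidase of plasma, went the opposite way to *Gpx2* in clone 4-18. It stood at 9.08, 8.45, 9.11 and 8.91 in CN-10 and at 10.23, 10.50, 10.17 and 10.53 in 4-18. All 4 arrays of the clone were above all CN-10 arrays, and the level rose by 1.47 (2.77-fold, standard error 0.17, limma adjusted p = 1.69e-05), or by 1.41 without replicate 4. In the deposited values without scaling *Gpx3* rose by 0.86 in 4-18, under 2-fold (limma adjusted p = 0.0314), and by 1.91 with the quantile-normalized processed signal. In 3-44 it stood at 8.94, 8.40, 8.45 and 8.14 and in shRNA3T at 8.73, 8.39, 8.49 and 8.33, with differences from CN-10 of -0.41 and -0.40 that did not pass (limma adjusted p of 0.201 and 0.171). With the processed signal of the scanner software *Gpx3* passed at -0.65 and -0.71 (limma adjusted p of 0.0156 and 0.00532), and without replicate 1 of 3-44 it passed in that clone at -0.56 (limma adjusted p = 0.049). The *Gpx3* probe of 60 bases lies on the plus strand of chr10:40316128-40317595 (rn4), a span of 1468 bases, so it crosses an intron.

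*Gpx4*, the enzyme that reduces peroxides within membrane phospholipids and guards cells against ferroptosis, differed from CN-10 by 0.13, 0.14 and -0.20 in turn. The means were 17.18 ± 0.08 (CN-10), 17.30 ± 0.19 (4-18), 17.32 ± 0.06 (3-44) and 16.97 ± 0.12 (shRNA3T). None of the 3 comparisons with CN-10 passed the test, and their 95% intervals ran from -0.07 to 0.32, from -0.05 to 0.34 and from -0.40 to -0.01. Without replicate 4 the difference in 4-18 was 0.21 (limma adjusted p = 0.0999). A second *Gpx4* probe gave differences of 0.31, 0.35 and -0.21, none of which passed. The related *Gpx5*, *Gpx6*, *Gpx7* and *Gpx8* were on the array, and no group had any of them well above background on all 4 arrays.

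*Nqo1* was the member that followed *Gpx2* most closely (r = 0.900 over the 16 arrays, which are 4 groups on 4 slides). It stood at 11.19, 11.01, 11.17 and 10.99 in CN-10. It stood at 9.67, 9.61, 9.79 and 9.03 in 4-18, at 10.59, 10.17, 10.30 and 10.26 in 3-44, and at 9.77, 9.93, 9.84 and 9.82 in shRNA3T. Again no silenced array reached the CN-10 arrays, and 3-44 was the least removed from them. *Nqo1* fell by 1.56 in 4-18 (2.96-fold, limma adjusted p = 1.06e-06), by 0.76 in 3-44 (1.69-fold, limma adjusted p = 0.00275) and by 1.25 in shRNA3T (2.38-fold, limma adjusted p = 2.47e-05), each with a standard error of 0.14. Without replicate 4 of 4-18, which was the lowest of its group, the fall in that clone was -1.40 (limma adjusted p = 2.98e-07). In the deposited values without scaling the difference in 3-44 was -0.87 and did not pass (limma adjusted p = 0.104). The probe lies on the minus strand of chr19:37251727-37251786 (rn4).

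*Hmox1* moved in the opposite direction in the same cells. It stood at 9.96, 10.08, 10.06 and 10.06 in CN-10 and at 12.22, 12.56, 12.00 and 12.13 in 4-18. It stood at 10.48, 10.69, 10.64 and 11.35 in 3-44 and at 10.74, 10.84, 10.83 and 11.05 in shRNA3T. The CN-10 arrays were the lowest and the 4-18 arrays the highest, with no overlap, while the arrays of 3-44 and shRNA3T overlapped. *Hmox1* rose by 2.18 in 4-18 (4.54-fold, limma adjusted p = 1.39e-07, and 2.22 without replicate 4), by 0.75 in 3-44 (1.68-fold, limma adjusted p = 0.00819) and by 0.82 in shRNA3T (1.77-fold, limma adjusted p = 0.00267), each with a standard error of 0.16. In the deposited values without scaling the last 2 did not pass, at 0.64 and 0.87 (limma adjusted p of 0.462 and 0.121), and with normexp values scaled to the 75th percentile or the median 3-44 did not, at 0.77 and 0.74 (limma adjusted p of 0.0821 and 0.0854). The array carries 10 spots of this probe, at chr19:13969336-13969395 on the plus strand (rn4).

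**Figure D2:**
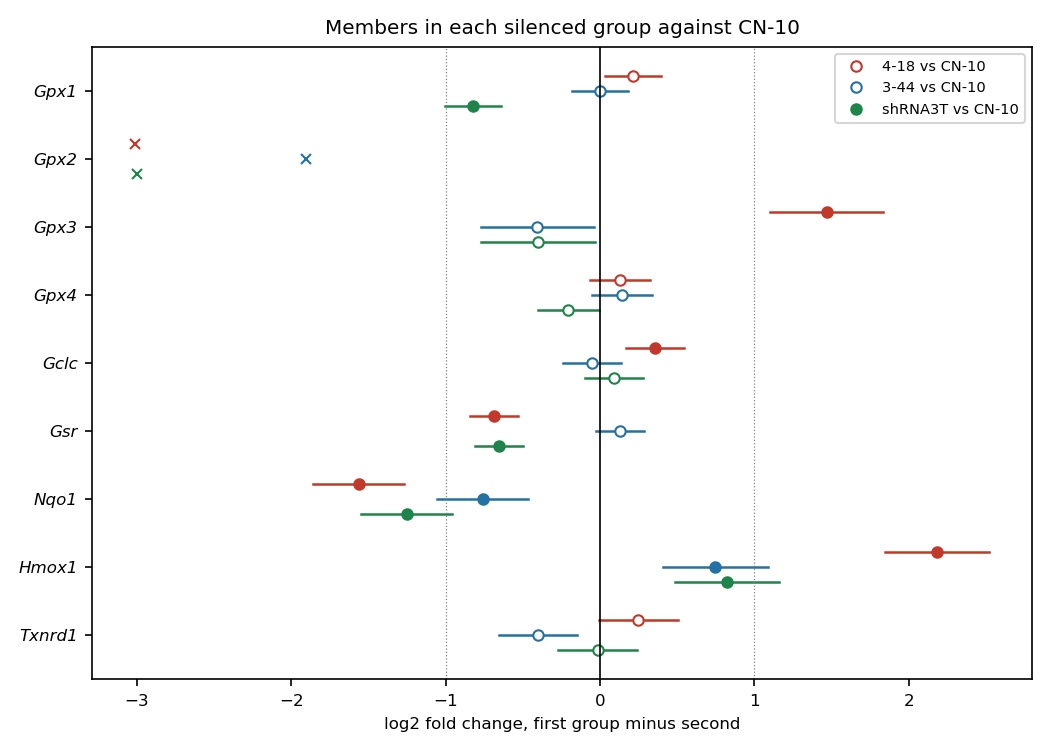
Log2 fold change of each member (horizontal axis) in 4-18, 3-44 and shRNA3T against CN-10, with 95% intervals. Filled points passed an adjusted p of 0.05, dotted lines mark 2-fold, *Gpx2* is drawn as crosses without interval because it was chosen by these comparisons, *Gclm* is left out because it was not above background, and *Nqo1* lies left of 0 and *Hmox1* right of 0 in all 3 groups.

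*Gsr* split the silenced groups. Its arrays stood at 10.64, 10.69, 10.57 and 10.62 in CN-10, at 9.87, 10.02, 9.95 and 9.95 in 4-18, at 10.77, 10.68, 10.72 and 10.88 in 3-44 and at 9.79, 10.04, 10.08 and 10.00 in shRNA3T. It fell by 0.69 in 4-18 with and without replicate 4 (limma adjusted p of 7.24e-06 and 3.44e-05) and by 0.65 in shRNA3T (limma adjusted p = 3.08e-05), each with a standard error of 0.07, and stood 0.13 above CN-10 in 3-44, which did not pass (limma adjusted p = 0.373). In the deposited values without scaling that of shRNA3T was -0.62 and did not pass (limma adjusted p = 0.342). Both falls were under 2-fold, 1.61-fold and 1.57-fold, and no array of 4-18 or shRNA3T reached CN-10 or 3-44. Over the 31 other settings that of 4-18 ran from -1.30 to -0.59 and passed in each. The probe spans 894 bases of the minus strand at chr16:62257899-62258792 (rn4), so it crosses an intron as well.

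The genes of glutathione synthesis gave little. *Gclc* stood at 14.69, 14.38, 14.62 and 14.49 in 4-18 against 14.24, 14.09, 14.27 and 14.15 in CN-10, and rose by 0.36 (1.28-fold, standard error 0.09, limma adjusted p = 0.00792). It was 0.37 without replicate 4 (limma adjusted p = 0.0125). This small rise depended on the scaling. It was 0.12 with the quantile-normalized processed signal (limma adjusted p = 0.391), and it turned to -0.34 in the deposited values without scaling (limma adjusted p = 0.346). In 3-44 and shRNA3T *Gclc* differed from CN-10 by -0.05 and 0.09, which did not pass. *Gclm* was well above background on 1 of 4 CN-10 arrays and on none of the other groups, with intensities between 6.09 and 6.78, so no fold change is given. *Txnrd1*, the cytosolic thioredoxin reductase and a selenoprotein too, showed differences from CN-10 of 0.25 (4-18), -0.40 (3-44) and -0.02 (shRNA3T), none of which passed (limma adjusted p of 0.162, 0.0544 and 0.972). The difference in 3-44 passed when replicate 1 of 4-18, of 3-44 or of shRNA3T was left out, at -0.40, -0.47 and -0.40 (limma adjusted p of 0.0244, 0.0339 and 0.0252). It also passed with a term for the replicate number in the fit. Without replicate 4 the difference in 4-18 was 0.27 (limma adjusted p = 0.166). A second, dimmer *Txnrd1* probe spread more within groups (SD of 0.30 to 0.65) and did not pass either.

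Counted over the 9 genes beside *Gpx2*, 2 rose (*Gpx3* and *Hmox1*) and 1 fell (*Nqo1*) by 2-fold or more with an adjusted p under 0.05 in 4-18. Of all gene names 2.62% rose and 3.54% fell by that rule. In 3-44 none of the 9 reached 2-fold by limma's fit, beside 0.685% of all gene names higher and 0.788% lower. There 4 of the 9 had an unadjusted p under 0.05, beside 19.6% of all gene names. By that looser rule it was 6 in 4-18 and 6 in shRNA3T, beside 34.6% and 23.3%. In shRNA3T only *Nqo1* was called, beside 1.2% higher and 1.19% lower. At an adjusted p under 0.05 and any size, 5 of the 9 passed in 4-18, 2 in 3-44 and 4 in shRNA3T, beside 24.1%, 8.14% and 12.2% of all gene names. The 3 comparisons share the CN-10 arrays, so the counts are not independent of each other.

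The silenced groups were next compared with each other, which asks whether 2 shRNA plasmids, or a clone and a pool with the same plasmid, left these genes at the same level. *Gpx2* is left out of the counts, since its choice rested on the same arrays. The 3 comparisons share arrays among themselves and with the comparisons above. Of the other 9 genes, 2 were called at 2-fold by limma's fit between 4-18 and 3-44 (*Gpx3* and *Hmox1*), 3 between 4-18 and shRNA3T (*Gpx1*, *Gpx3* and *Hmox1*) and none between 3-44 and shRNA3T, beside 4.98%, 4.56% and 2.12% of all gene names. At any size 6, 5 and 4 of them passed, beside 22.5%, 20.5% and 10.9%. Between 3-44 and shRNA3T 5 of the 9 had an unadjusted p under 0.05, beside 23.1% of all gene names. By that looser rule it was 7 between 4-18 and 3-44 and 7 between 4-18 and shRNA3T, beside 33.4% and 30.9%.

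*Gpx2* was lower in 4-18 than in 3-44, with a log2 difference of -1.11 (2.16-fold), and higher in 3-44 than in shRNA3T by 1.10 (2.14-fold), each with a standard error of 0.22. Between 4-18 and shRNA3T the difference was -0.01. These values describe a gene chosen on these arrays and were not tested. In order of level, CN-10 was followed by 3-44 and then by shRNA3T and 4-18, whose arrays overlapped. The second probe kept the first part of that order and placed 4-18 above shRNA3T by 0.47. The difference between the 2 groups with the same shRNA3 plasmid was 0.93 without replicate 1 of every group and 0.996 in the deposited values without scaling.

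*Nqo1* had the same order of group means, with 4-18 below 3-44 (-0.80, limma adjusted p = 0.000581) and 3-44 above shRNA3T by 0.49 (limma adjusted p = 0.0316). The last of these did not pass when replicate 1, 3 or 4 of 3-44, or any single shRNA3T array, was left out, with values from 0.41 to 0.52 and adjusted p from 0.05 to 0.0968, nor without replicate 1 of every group (0.38, limma adjusted p = 0.179) or in the deposited values without scaling (0.36, limma adjusted p = 0.889). Between 4-18 and shRNA3T the difference of -0.31 did not pass (limma adjusted p = 0.14), but did in the deposited values without scaling (-0.86, limma adjusted p = 0.0165). *Gsr* was lower in 4-18 than in 3-44 (-0.82, limma adjusted p = 1.52e-06) and higher in 3-44 than in shRNA3T by 0.78 (limma adjusted p = 8.95e-06, but 0.64 and 0.34 in the deposited values without scaling), while 4-18 and shRNA3T differed by -0.03 with a 95% interval from -0.19 to 0.12. Among the silenced groups, 3-44 had the highest mean of *Gpx2*, *Nqo1* and *Gsr*.

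*Gpx3* and *Hmox1* set 4-18 apart instead. *Gpx3* was higher there by 1.87 than in 3-44 and by 1.87 than in shRNA3T (3.66-fold and 3.65-fold, limma adjusted p of 1.82e-06 and 2.27e-06). The *Gpx3* values were 1.39 and 1.26 in the deposited values without scaling and 2.56 and 2.62 with the quantile-normalized processed signal, and all passed. *Hmox1* was higher by 1.44 and 1.36 (2.71-fold and 2.57-fold, limma adjusted p of 1.04e-05 and 2.05e-05). In the deposited values without scaling these were 0.85 and 0.63, and the latter did not pass (limma adjusted p of 0.035 and 0.12). Between 3-44 and shRNA3T the 95% intervals of the differences ran from -0.37 to 0.36 for *Gpx3* and from -0.41 to 0.26 for *Hmox1*. *Gpx1* set the pool apart, with 4-18 above shRNA3T by 1.04 (2.05-fold, limma adjusted p = 7.1e-07) and 3-44 above it by 0.82 (limma adjusted p = 1.87e-05). Neither passed in the deposited values without scaling, at 0.34 and 0.75 (limma adjusted p of 0.288 and 0.125).

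**Figure D3:**
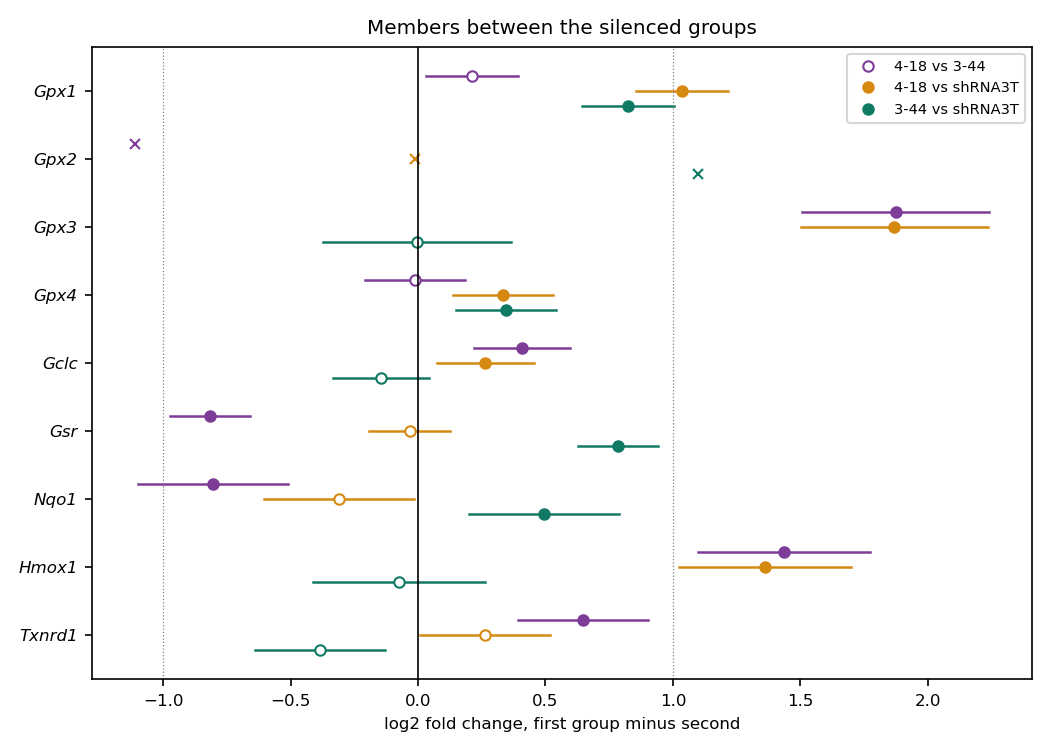
Log2 fold change of each member (horizontal axis) between the silenced groups, first group minus second, with 95% intervals. Filled points passed an adjusted p of 0.05, dotted lines mark 2-fold, *Gpx2* is drawn as crosses without interval because it was chosen on these arrays, and *Gpx3* and *Hmox1* lie at 1.36 to 1.87 in both comparisons of 4-18.

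Smaller differences passed for *Gpx4*, *Gclc* and *Txnrd1*. *Gpx4* was higher in 4-18 and in 3-44 than in shRNA3T, by 0.33 and 0.35 (limma adjusted p of 0.0169 and 0.024), and its second probe gave 0.52 and 0.56 (limma adjusted p of 0.0303 and 0.0342). *Gclc* was higher in 4-18 than in 3-44 by 0.41 (limma adjusted p = 0.00342) and than in shRNA3T by 0.26 (limma adjusted p = 0.0471). *Txnrd1* was higher in 4-18 than in 3-44 by 0.65 (1.57-fold, limma adjusted p = 0.00104), but did not pass with its probes averaged (0.22, limma adjusted p = 0.335), with the processed signal, whether scaled to the 75th percentile or quantile normalized (0.32 for the latter, limma adjusted p = 0.0635), or in the deposited values without scaling (0.06, limma adjusted p = 0.849). The differences of *Gclc* and that of *Gpx4* between 4-18 and shRNA3T changed sign under other scalings. Those of *Gpx4* and the *Gclc* value of 0.26 also lost the call when single arrays were left out, among them replicate 1 of shRNA3T, with 0.28, 0.29 and 0.26 (limma adjusted p of 0.0542, 0.0746 and 0.0921).

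**Figure D4:**
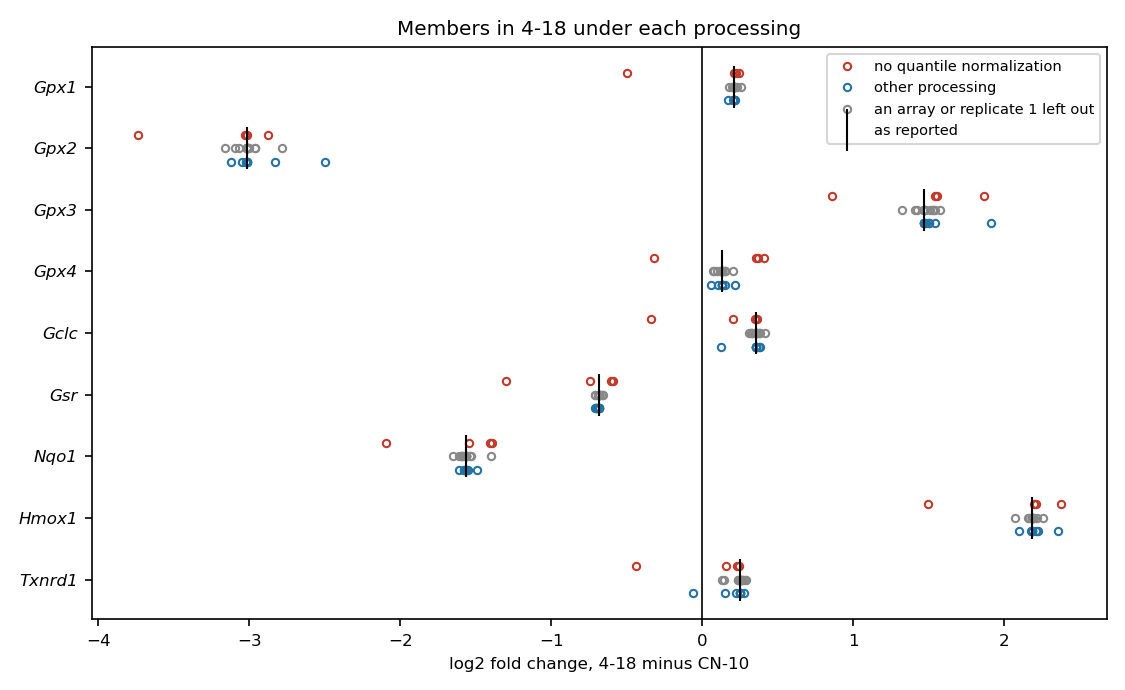
Log2 fold change of each member in 4-18 against CN-10 (horizontal axis) as reported (bar) and under the 31 other settings (circles). *Gpx2*, *Gsr* and *Nqo1* stay left of 0 and *Gpx3* and *Hmox1* right of 0 in all of them, while *Gclc* reaches -0.34 and *Txnrd1* -0.44.

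Around these 10 genes the rest of the pathway was read from 6 lists of 85 genes, 81 of which were on the array. Of these, 75 were detected well above background throughout 1 or more of the groups, beside 16455 of the 26269 gene names. The shares of all gene names given beside the lists and the members count every name, detected or not. In 4-18, 3 of the 81 rose and 5 fell by 2-fold or more (3.7% and 6.17%, beside 2.62% and 3.54% of all gene names). In 3-44 2 rose and none fell (2.47%, beside 0.685% higher and 0.788% lower), and in shRNA3T 3 rose and none fell (3.7%, beside 1.2% and 1.19%). At any size 15 rose and 17 fell in 4-18 (18.5% and 21%, beside 11.6% and 12.4%), 8 rose and 3 fell in 3-44 (9.88% and 3.7%, beside 3.45% and 4.69%) and 10 rose and 12 fell in shRNA3T (12.3% and 14.8%, beside 5.13% and 7.04%). The median log2 fold change of the 81 was 0.00, 0.07 and 0.09, against 0.00, -0.01 and -0.01 over all gene names.

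The list of other NRF2 targets, 27 genes on the array, held all 5 that fell in 4-18. Its median was -0.38 there, 0.08 in 3-44 and -0.003 in shRNA3T. *Akr1b8*, an aldo-keto reductase, fell by 1.51, *Gsta3* by 1.35 and *Gstm1* by 1.30, the last 2 being glutathione S-transferases (limma adjusted p of 0.000216, 1.58e-06 and 5.42e-05). *Slc7a11*, the cystine importer, fell by 1.03 (limma adjusted p = 4.01e-06) and was well above background on 3 of the 4 arrays of 4-18.

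The genes named were chosen by their fall in 4-18, so their differences between 4-18 and the other silenced groups, which use the same 4-18 arrays, are a description. *Gsta3* differed from CN-10 by 0.13 in 3-44 and -0.17 in shRNA3T, neither of which passed. Between 4-18 and 3-44 it differed by -1.48. *Akr1b8* rose in 3-44 by 1.09 (limma adjusted p = 0.00907), and 4-18 differed from 3-44 by -2.60, while *Gstm1* rose there by 0.75 (limma adjusted p = 0.0137). At any size 3 of the 27 rose and 12 fell in 4-18 (11.1% and 44.4%, beside 11.6% and 12.4% of all gene names). In 3-44 4 rose and 1 fell (14.8% and 3.7%, beside 3.45% and 4.69%), and in shRNA3T 4 rose and 5 fell (14.8% and 18.5%, beside 5.13% and 7.04%). The share of a list is a description and was not tested against other genes.

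Over all 81 genes, 5 passed at any size against CN-10 in all 3 groups (6.17%), beside 2.79% of all gene names, in comparisons that share the CN-10 arrays, and 3 of them are in this list. *Srxn1*, the sulfiredoxin that repairs overoxidized peroxiredoxins, fell in all 3 groups, by 0.71 in 4-18, 0.81 in 3-44 and 0.58 in shRNA3T (limma adjusted p of 0.000358, 0.000402 and 0.00344). Unlike *Nqo1*, it did not fall least in 3-44. *Abcc2*, which exports glutathione conjugates, fell by 0.85 in 4-18 and rose by 0.55 and 0.69 in 3-44 and shRNA3T (limma adjusted p of 5.53e-07, 0.000153 and 1.24e-05). *Aox1*, an aldehyde oxidase, was the third and rose in 3-44 by 1.32 (limma adjusted p = 0.000909) and in shRNA3T by 1.08 (limma adjusted p = 0.0026). In 4-18 it rose by 0.94, under 2-fold (limma adjusted p = 0.00362). *Gsta4*, which clears lipid peroxidation aldehydes, rose in shRNA3T by 1.24 (limma adjusted p = 0.0418), with 1 CN-10 array set aside for an outlier flag, and stood 1.25 above CN-10 in 3-44, which did not pass (limma adjusted p = 0.053).

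The 11 genes listed under NRF2 control include *Nfe2l2* itself, the related *Nfe2l1* and the small MAF partners. Among the 11, 2 rose by 2-fold or more in 4-18 (18.2%, beside 2.62% of all gene names) and none elsewhere. At any size 3, 2 and 1 of them rose in 4-18, 3-44 and shRNA3T (27.3%, 18.2% and 9.09%, beside 11.6%, 3.45% and 5.13%). *Mafg*, a small MAF partner of NRF2 and of BACH1, rose by 1.25 (limma adjusted p = 0.000196), and *Cul3* rose by 1.18 (limma adjusted p = 0.0037). *Nfe2l1*, the gene of the related factor NRF1, rose in all 3 groups, by 0.83, 0.53 and 0.52 (limma adjusted p of 0.000168, 0.015 and 0.0116). *Nfe2l2*, the gene of NRF2, differed from CN-10 by 0.01, -0.35 and 0.09, with wide 95% intervals from -0.88 to 0.89, from -1.24 to 0.53 and from -0.79 to 0.98. *Keap1* differed by 0.35, 0.02 and -0.16 and did not pass (limma adjusted p of 0.076, 0.964 and 0.567). *Bach1* rose in 3-44 by 0.49 (limma adjusted p = 0.0106) and differed by -0.14 in 4-18 and 0.26 in shRNA3T, which did not pass. It was well above background on 1 of the 4 arrays of 4-18.

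**Figure D5:**
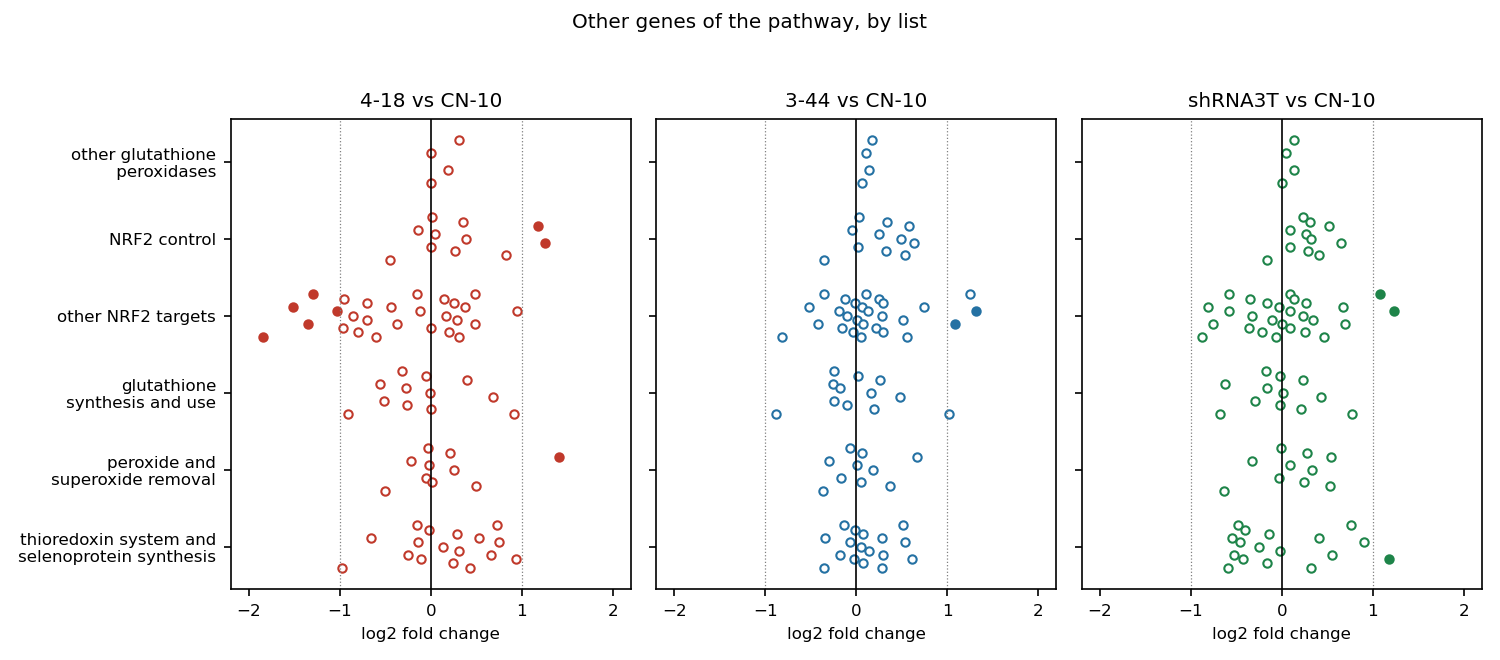
Log2 fold change (horizontal axis) of the 81 other genes of the pathway against CN-10, by list, 1 point a gene. Filled points were called at 2-fold (dotted lines) with an adjusted p under 0.05, and the list of other NRF2 targets holds the 5 filled points left of 0, all in 4-18.

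Of the remaining lists, peroxide and superoxide removal (10 genes) held 1 call, *Sod3*, the extracellular superoxide dismutase, which rose by 1.41 in 4-18 (limma adjusted p = 8.08e-05). The thioredoxin system and selenoprotein synthesis (17 genes on the array) held 1 as well, *Selenom*, a selenoprotein of the endoplasmic reticulum, which rose by 1.18 in shRNA3T (limma adjusted p = 0.00315) and by 0.93 in 4-18 (limma adjusted p = 0.00814). None of the 12 genes of glutathione synthesis and use on the array was called at 2-fold. Of these, *Ggt7*, of the gamma-glutamyltransferase family, fell in all 3 groups, by 0.91, 0.89 and 0.62 (limma adjusted p of 3.45e-05, 0.000182 and 0.002). The 2-fold counts of these 3 lists stand beside 2.62% of all gene names higher and 3.54% lower in 4-18, 0.685% and 0.788% in 3-44, and 1.2% and 1.19% in shRNA3T. Without replicate 4 of 4-18, each of the genes of these lists named as having risen or fallen in 4-18, *Selenom* included, passed again, among them *Akr1b8* (-1.49), *Gsta3* (-1.32), *Gstm1* (-1.25), *Mafg* (1.35), *Cul3* (1.17) and *Sod3* (1.47).

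Over the probes detected in at least 1 group that had a value on all 16 arrays, those most like *Gpx2* across the 16 arrays were of *Cox6a2*, a muscle-type subunit of cytochrome c oxidase (r = 0.952), an unnamed probe (r = 0.951), *Fam82a1* (r = 0.951), *Cdc42ep5*, an effector of the small GTPase CDC42 (r = 0.945), and *Gzmb*, the granule protease granzyme B (r = 0.944), among 17839 probes compared. *Cox6a2* had log2 fold changes of -3.20, -1.64 and -2.78 against CN-10, close in size to those of *Gpx2*, while those of *Gzmb* were -0.46, -0.39 and -0.48. These correlations describe the arrays and carry no test, since the arrays of a group share a slide and a clone or pool. Among the members, r with *Gpx2* was 0.736 for *Gsr*, 0.306 for *Gpx1* and -0.726 for *Hmox1*.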

How the data were processed

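RNA of 16 H35 cultures, 4 per group, was hybridized to one-color Agilent rat arrays. The authors read spot brightness with Feature Extraction 10.7.3.1, and the deposited intensity values are linear and not normalized. A second deposited table, with 1 value a spot, had lost its decimal points. With these put back, it equalled log2 of the median signal after normexp correction, unscaled (largest difference 3.99e-11).

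In R 4.3.3 with limma 3.58.1, the mean signal was corrected by normexp (offset 50) against the local background. Control spots were dropped, quantile normalization followed, outlier-flagged spots were not used and repeat spots of each probe were averaged. The linear model had a mean for each group over all 16 arrays, with moderated variances, and p-values were adjusted by Benjamini-Hochberg over all 30367 probes. Every adjusted p is from this two-sided limma test. A gene is its probe with the highest mean. Genes were called at 2-fold and an adjusted p under 0.05.

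The members and lists were chosen with earlier results of these data known. Named from the lists were the genes called against CN-10, at most 4 per list and comparison, and *Nfe2l2*, *Keap1* and *Bach1*. *Slc7a11*, *Srxn1*, *Abcc2*, *Ggt7* and *Nfe2l1* lie beyond that rule and were named after their values were seen, as were the comparisons of list genes between silenced groups. Counts between silenced groups had been planned over all 10 genes, and *Gpx2* was left out of them later. The values of 1 listed gene are not reported here. Of the 85 listed genes, *Pgd*, *Glrx*, *Sepsecs* and *Pstk* were not matched on the array. The steps were tested on simulated data. All 10 members matched their RefSeq symbol by accession. No rn4 annotation was used, so exons are stated for none but the probes that span an intron. The number of arrays limits the precision.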

Additional observations from a re-analysis of the deposited data

Results flagged for a closer look

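Within groups, 2 of 40 sets of 4 arrays held an array far from the rest. *Gclm* stood at 6.74 on replicate 4 of CN-10, with the next array at 6.15 and the probe not well above background on the others. *Txnrd1* stood at 12.42 on replicate 1 of 4-18, with the next at 12.03. Chance gives about 1 in 20 such sets.

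The fold change against CN-10 differed between silenced groups, in 1 or more of the 3 comparisons, for 8 of the 9 genes beside *Gpx2*, by the limma test of the difference itself (adjusted p given above). By the same rule 32% of all gene names differed, a share that also counts names not detected above background. *Nqo1* was lower in 4-18 than in 3-44 (-0.80) and higher in 3-44 than in shRNA3T (0.49), and *Gsr* likewise (-0.82 and 0.78). *Gpx3* was higher in 4-18 than in 3-44 and shRNA3T by 1.87 each, and *Hmox1* by 1.44 and 1.36. *Gpx1* was higher in 4-18 and 3-44 than in shRNA3T by 1.04 and 0.82, and *Gpx4* by 0.33 and 0.35. *Gclc* was higher in 4-18 than in 3-44 and shRNA3T by 0.41 and 0.26, and *Txnrd1* was higher in 4-18 than in 3-44 by 0.65. Those of *Gpx4*, *Gclc* and *Txnrd1* were lost or changed sign under other settings, as given above. The 0.49 of *Nqo1* did not pass in 11 of 31 settings. Both differences of *Gpx1*, the 0.78 of *Gsr* and the 1.36 of *Hmox1* did not pass in the deposited values without scaling. The part of slide, clone and selection in these differences cannot be told apart.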

How the results depend on the processing

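Besides the values reported, 32 settings were run, 1 of them (normexp against the median background of each array) chosen after seeing the data. Under each of them *Gpx2* and *Nqo1* were lower and *Hmox1* higher than CN-10 in all 3 groups, and *Gsr* was lower in 4-18 and shRNA3T. Of 1674 values of single members, 61 changed sign, and 6 of these concern a value that had passed the test. *Gclc* in 4-18 against shRNA3T turned to -0.26 with the quantile-normalized processed signal, -0.13 with the processed signal scaled to the 75th percentile and -0.40 in the deposited values without scaling. In the last, *Gclc* turned to -0.34 in 4-18 against CN-10 and -0.20 against 3-44, and *Gpx4* to -0.31 in 4-18 against shRNA3T. The cause was not tested. *Gpx2* in 4-18 was -3.74 in the deposited values without scaling and -2.50 with both probes averaged, and -1.61 in 3-44 with both probes averaged. In the deposited values without scaling it differed by -1.72 between 4-18 and 3-44 and by -0.72 between 4-18 and shRNA3T.

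With no quantile normalization, the median probe of 4-18 moved against CN-10 by 0.86 (normexp, 75th percentile), 0.85 (normexp, median scaling), 0.20 (processed signal, 75th percentile) and 0.15 (deposited values), and that of shRNA3T by -0.23 (processed signal, 75th percentile) and -0.10 (median scaling). Without replicate 4 of 4-18 the first of these was 0.50.

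Counts of the 9 genes beside *Gpx2* moved as follows. In 3-44 the 2 passing at any size became 1 with 75th percentile or median scaling of normexp values, 0 in the deposited values without scaling and 4 with array weights, and ranged from 2 to 4 when an array was left out (4 without replicate 1 of 3-44). With a fold limit of 1.5 in place of 2, 2 were called in 3-44 and 4 in shRNA3T. In shRNA3T the 4 passing at any size became 1 in the deposited values without scaling.

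Counts of these 9 genes between silenced groups moved too. At 2-fold, the limit of 1.5 gave 5 between 4-18 and 3-44 and 2 between 3-44 and shRNA3T, and the deposited values without scaling gave 1 between 4-18 and shRNA3T. At any size, 4-18 against shRNA3T gave 3 with the quantile-normalized processed signal, with 75th percentile or median scaling of normexp values and with only the 2 groups in the fit. It gave 2 in the deposited values without scaling, and 3 to 5 with arrays left out (3 without replicate 3 of 4-18). There, 3-44 against shRNA3T gave 2 with 75th percentile or median scaling, 0 in the deposited values without scaling, and 2 to 5 with arrays left out (2 without replicate 3 or 4 of 3-44, or replicate 1 or 2 of shRNA3T).

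The 8 other pathway genes called in 4-18 became 13 with the processed signal at the 75th percentile, 16 and 17 with 75th percentile and median scaling of normexp values, 17 in the deposited values without scaling, 24 at 1.5-fold and 7 to 12 with arrays left out (12 without replicate 4 of 4-18 or of CN-10). The 2 in 3-44 became 1 with the quantile-normalized processed signal, 0 in the deposited values without scaling, 7 at 1.5-fold, 2 to 4 with arrays left out (4 without replicate 3 of 4-18), and 4 with an offset of 16, with only probes above background or with only the 2 groups compared. The 3 in shRNA3T became 0, 12 and 2 to 5 in the deposited values, at 1.5-fold and with arrays left out (5 without replicate 4 of CN-10).

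The labels do not say that a number marks a shared batch, so the reported fit has no replicate block. Whether one belongs in it was not tested. Of 24 pairs of same-numbered arrays 14 deviated together with a correlation over 0.1 (range -0.12 to 0.48). Their median was 0.13, against -0.03 over the 72 pairs of different numbers. All 6 pairs of replicate 1 were over 0.1 (0.19 to 0.48), and an array correlated best with its own number in 25 of 48 comparisons with another group. With the replicate block, no count moved by over 1.5 times, 5 of the 9 genes passed between 3-44 and shRNA3T instead of 4, and *Txnrd1* passed in 3-44 against CN-10 (-0.40) and against shRNA3T (-0.39).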
